A study of Mus musculus with 6 samples.

Results

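CA1 pyramidal neurons are the glutamatergic output cells of hippocampal field CA1. In these data they are the 2338 cell barcodes, of 50466 in the series, that passed a marker gate. A barcode entered the gate with at least 3000 UMIs (unique molecular identifiers, each a captured transcript), at most 20% mitochondrial UMIs, at least 2 UMIs of the vesicular glutamate transporters Slc17a7 and Slc17a6 together, and at most 1 UMI of Gad1 and Gad2. Of the 15409 barcodes past these limits, the members were those with the highest mean log-scaled level of Mpped1, Fibcd1, Wfs1 and Man1a, at least 0.2 above each of 3 other sets of 4 genes. The same rule gave 4434 dentate granule neurons (DG), 2503 CA3 neurons and 3626 neurons of a retrohippocampal set (RH), used here for contrast only.

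The cells came from the hippocampus of old mice in 2 groups of 3 libraries. Control mice breathed air. Sevoflurane mice were exposed for 6 h to 2% sevoflurane, a volatile anaesthetic, and the hippocampus was collected 24 h later. Strain, sex and exact age are not given in the sources used here. All 6 suspensions were digested with collagenase, frozen and thawed before droplet capture. The labels count 6 mice but do not tie a library to an animal, so the p-values below measure the spread between these libraries, which may be technical.

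CA1 receives its main excitatory drive from CA3 through the Schaffer collaterals and sends its axons to the subiculum and the entorhinal cortex. Its synapses are the classical site of long-term potentiation that depends on NMDA receptors, and its cells are needed for spatial and episodic memory. Sevoflurane is known to potentiate GABA-A receptors and to depress glutamatergic transmission while it is present.

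The 6 libraries gave 288, 537 and 371 CA1 members in Control and 454, 394 and 294 in Sevoflurane. Their counts summed to between 3946624 and 7160978 UMIs per library. The library Sevoflurane 1 stood apart from the other 5 in sex-linked genes: its CA1 cells held 1043 CPM (counts per 1000000 UMIs of the members) of the X-inactivation RNA Xist against 0.895 to 2.64 elsewhere, and Eif2s3y, on the Y chromosome, was at 0. The sexes were therefore not balanced between the groups, and counts without this library are given below. Any 2 libraries shared between 13 and 29 barcode sequences, none of them both times a CA1 member. RNA of other cells was also counted: the summed level of 7 endothelial markers ran from 8.72 to 20.8 CPM in Control and from 6.30 to 111.8 in Sevoflurane, where Sevoflurane 3 was the high one. For 8 microglial markers it was 54.2 to 56.6 and 58.3 to 61.5 CPM, and for 8 oligodendrocyte markers 213.2 to 405.9 and 296.5 to 400.1.

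Man1a, a Golgi mannosidase, had a UMI in 98.1% of the members and Mpped1, a metallophosphoesterase, in 92.2%. Fibcd1, a fibrinogen-domain receptor, had a UMI in 51.8%, and Wfs1, the wolframin gene of the endoplasmic reticulum, in 27.3%. The members were chosen by the measured counts of these genes and of the other marker sets, so their levels are a description. The 258 members with a lead of 0.2 to 0.25 over the next set had a median gate score of 0.732 against 0.512 for the next set. The 229 cells just outside, with a lead of 0.15 to 0.2, had 0.698 and 0.529. In 46.1% of the Control members and 48.4% of the Sevoflurane members, as means over libraries, the next set was RH.

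Known CA1 genes outside the gate gave a mixed check of the name. Spink8, a protease inhibitor gene, stood at 28.7 ± 3.64 CPM in CA1 (mean ± SD, n = 6 libraries) against 9.08 in DG, 13.8 in CA3 and 10.7 in RH. Pou3f1, a POU transcription factor, stood at 41.4 ± 8.48 against 10.2, 6.55 and 26.2 CPM, and Crym, a thyroid hormone binding protein, at 120.9 ± 9.61 against 80.4, 82.5 and 53.9. These 3 were higher in CA1 than in each other class within every library. The level of Tyro3, a receptor tyrosine kinase gene (36.2 CPM in CA1, 38.6 in RH), did not separate CA1 from RH, Neurod6 was as high in CA3, and Zbtb20 and Hs3st4 were highest outside CA1. Dentate, CA3 and RH markers summed to 308 CPM, 528 CPM and 397.3 CPM in CA1, against 5140 CPM, 4012 CPM and 3870 CPM in their own classes. A list of 6 cortical excitatory markers went the other way, with 3954 CPM in CA1 against 2825 in RH, 1183 in CA3 and 667.6 in DG. Of its CA1 sum, 3897 CPM was Hs6st3, a heparan sulfate sulfotransferase gene, and Rorb, Cux2, Rasgrf2, Fezf2 and Foxp2 were each at 4.03 to 18.0 CPM.

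**Figure D1:**
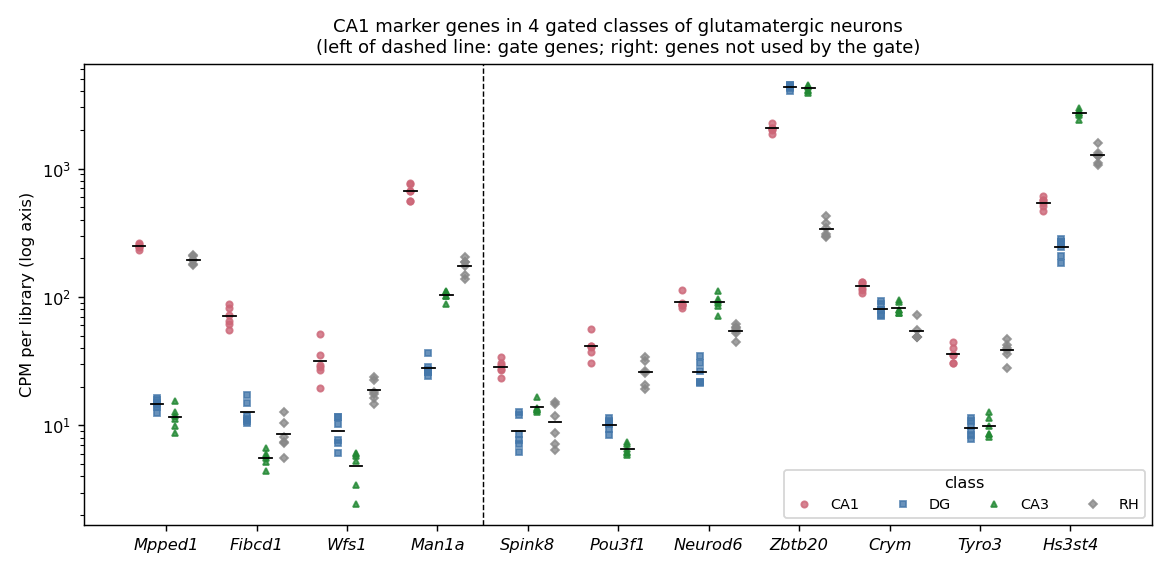
Level in CPM (log axis) of the 4 gate genes and 7 other CA1 genes in the 4 gated classes of glutamatergic neurons; each point is 1 library and each bar the mean of 6. Spink8, Pou3f1 and Crym were highest in CA1 within every library, while Zbtb20 and Hs3st4 were highest in other classes.

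Over all genes with at least 20 CPM in CA1 in every library, 16 of 5755 were at least 2-fold higher in CA1 than in DG, CA3 and RH in each of the 6 libraries, gate genes included. The one with the largest lead was Galntl6, a polypeptide N-acetylgalactosaminyltransferase of mucin-type glycosylation, at 5787 ± 507.3 CPM against 782.3 in RH, the next highest class. The metalloprotease gene Adam12 stood at 106.2 ± 16.7 CPM against at most 16.7 in another class, and the calcium-dependent membrane-binding protein gene Cpne8 at 292.2 ± 44.7 against at most 82.8. The GTPase-activating gene Arhgap12 (344.9 CPM), the Rab GTPase-activating gene Tbc1d1 (301.7), the zinc finger gene Zfp462 (320.9), the Arf GTPase-activating gene Asap2 (298.1), the E2F partner Tfdp2 (291.1), Creb3l2 (42.6) and Dcdc2a (35.9) completed the 12 leading genes with Fibcd1 and Man1a. The classes were cut on gene sets of the same cells, so this order carries no test.

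The number of CA1 neurons recovered and their depth did not separate the groups. Members were 16.1 ± 2.23% of the glutamatergic barcodes in Control and 14.1 ± 2.32% in Sevoflurane (n = 3 each, two-sided exact permutation p = 0.4, where 3 against 3 cannot go below 0.1). The lowest share was 11.4% in Sevoflurane 3 and the highest 18.1% in Control 2, and the groups overlapped. The median member held 11630 ± 969 UMIs in Control against 11110 ± 1918 after exposure (exact permutation p = 0.8). Mitochondrial UMIs were few: their median share per member ran from 0.07295% (Control 2) to 0.2055% (Control 1) over the libraries. The nuclear RNA Malat1 ran from 36410 CPM (Control 1) to 54610 CPM (Sevoflurane 1). Whether the barcodes held whole cells or mainly nuclei was not tested, so levels here are not measures of whole-cell mRNA. Of the gate genes, Man1a had a log2 fold change of -0.40 (SE 0.10, sevoflurane over control) and Fibcd1 one of 0.30 (SE 0.09). Wfs1 had 0.54 (SE 0.20) and Mpped1 -0.13 (SE 0.08). None passed the test below (edgeR, adjusted p = 0.0644, 0.136, 0.201 and 0.417). A shift of the gate itself therefore cannot be told apart from a shift in cell number.

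To ask which CA1 transcripts differed 24 h after the exposure, the counts of the members were summed per library and 3 Sevoflurane sums compared with 3 Control sums. The quasi-likelihood test of edgeR was used with Benjamini-Hochberg adjustment over all 12986 genes tested, at a threshold of 0.05, and every adjusted p below is from it unless another source is named. Of these genes, 174 (1.34%) passed: 40 were higher (0.308%) and 134 lower (1.03%) with sevoflurane. In all 174 the libraries of the groups did not overlap, as in 21.9% of all genes tested. From here on, gene levels are CPM on totals scaled by the test, so that they differ by a few percent from the unscaled CPM given above, and they are listed for Control 1, 2 and 3 and then Sevoflurane 1, 2 and 3. Each fold change is log2, sevoflurane over control. In summed counts, fewer transcripts in each barcode and fewer barcodes with the transcript cannot be told apart.

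Of the genes for glutamate receptors and their auxiliary subunits, some fell, none rose and most did not pass the test. Grin2a (chromosome 16, 9567898 to 9995560 in GRCm38), which encodes the NMDA receptor subunit of mature synapses, stood at 4999, 5217 and 4742 CPM in Control and at 3714, 3717 and 3879 in Sevoflurane. All 3 Sevoflurane libraries lay below all 3 Control libraries, with a log2 fold change of -0.40 (SE 0.06, adjusted p = 0.0176). Grin2b (chromosome 6, 135713233 to 136173511), for the subunit that prevails early in development, went from 2795 ± 36.7 to 2304 ± 67.0 CPM (-0.28, SE 0.06, adjusted p = 0.0426). Grin3a, for a subunit that lowers calcium permeability, went from 83.2 ± 7.80 to 59.4 ± 2.52 CPM (-0.49, adjusted p = 0.0344). Thus 3 of the 5 NMDA receptor genes tested fell. The obligatory subunit gene Grin1 had the opposite sign without passing: it stood at 530.4, 529.2 and 507.0 CPM in Control and at 651.4, 613.8 and 675.2 in Sevoflurane (0.31, SE 0.07, adjusted p = 0.0521). The groups of Grin1 did not overlap either. In alternative fits without barcodes marked as doublets, or without members above 0.5% mitochondrial UMIs, 1 NMDA receptor gene passed as higher.

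Of 9 AMPA and kainate receptor genes, all had negative log2 fold changes and 1 fell. That was Gria4 (-0.64, SE 0.12, adjusted p = 0.0314), an AMPA receptor subunit gene that went from 327.9 ± 49.3 to 209.8 ± 25.2 CPM. The main AMPA subunit genes of pyramidal cells, Gria1 and Gria2, had -0.25 and -0.06 (adjusted p = 0.107 and 0.813).

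Among 10 auxiliary subunits, which travel with AMPA receptors and set their kinetics, Shisa9 fell. It stood at 168.6, 191.6 and 202.3 CPM in Control and at 91.3, 113.0 and 90.2 in Sevoflurane (-0.94, SE 0.11, adjusted p = 0.00855), with every Sevoflurane library below every Control library. Transmembrane AMPA regulatory protein genes stayed short of the threshold, with log2 fold changes of -0.57 in Cacng2, -0.43 in Cacng3, -0.43 in Cacng8 and -0.28 in Cacng7 (adjusted p = 0.0552, 0.0702, 0.0509 and 0.159). Shisa6 had -0.40 and Gsg1l -0.23, while 3 members were positive: Cacng5, the highest, had 1.08 ± 0.0603 CPM in Control against 3.08 ± 0.847 after exposure (adjusted p = 0.0810), and the cornichon genes Cnih2 and Cnih3 had log2 fold changes of 0.07 and 0.00. The median of this list was -0.34, against 0.02 over all genes tested. Of 7 metabotropic receptors, all negative in sign, the presynaptic type Grm8 fell (-0.72, SE 0.15, adjusted p = 0.0497), from 130.1 ± 30.7 to 79.0 ± 5.77 CPM.

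No gene for an inhibitory receptor passed. Of the 12 GABA-A receptor genes, 0 passed with edgeR (median -0.05, 1 of 12 with an unadjusted p under 0.05). Gabra5, whose subunit carries tonic inhibition in CA1, had -0.13. Gabrb2 had the most negative value, -0.36 (SE 0.10, adjusted p = 0.108). None of the 5 genes for GABA-B receptors and their KCTD partners passed either, although 4 had an unadjusted p under 0.05. Over all genes tested, 2174 of 12986 had an unadjusted p under 0.05. In the lists of HCN and K2P potassium channels (11 genes) and of adenylyl cyclases and phosphodiesterases (14 genes) none passed, with 2 and 7 at an unadjusted p under 0.05.

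Genes for repolarising potassium channels fell in 3 of 27 cases. Kcnd3, for an A-type channel, stood at 197.1, 216.7 and 190.6 CPM in Control and 117.1, 147.7 and 118.8 in Sevoflurane (-0.66, SE 0.10, adjusted p = 0.0233), again without overlap. The small-conductance calcium-activated channel gene Kcnn2 fell by 0.46 and the M-current gene Kcnq5 by 0.40 on the log2 scale (adjusted p = 0.0314 each). Of 22 sodium and calcium channel genes only Cacna2d3, an auxiliary calcium channel subunit gene, passed (-0.30, adjusted p = 0.0453). The sodium-calcium exchanger gene Slc8a1 (chromosome 17, 81373105 to 81738377), which extrudes calcium, was the 1 of 13 calcium store and extrusion genes that passed. It went from 2645, 2678 and 2541 CPM to 1804, 1816 and 1868 (-0.52, SE 0.06, adjusted p = 0.00855), and the groups were far apart relative to their spread.

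Camk4, a calmodulin-dependent kinase that signals to the nucleus, fell by 0.52, the only one of 20 plasticity kinases and phosphatases to pass (adjusted p = 0.0314). The scaffold gene Dlg1 fell by 0.47 (1 of 16 scaffolds, adjusted p = 0.0314). Of 24 synaptic adhesion genes, Lrrtm3 and Ptprd fell. Lrrtm3 (chromosome 10, 63928472 to 64090277), a postsynaptic partner of neurexins, stood at 70.0, 82.7 and 78.3 CPM in Control and 39.0, 46.6 and 37.2 in Sevoflurane (-0.92, SE 0.11, adjusted p = 0.00855). Its groups did not overlap, whereas the related Lrrtm1 and Lrrtm2 had -0.02 and 0.08 (adjusted p = 0.954 and 0.866). The receptor phosphatase gene Ptprd fell by 0.47 (adjusted p = 0.0233). Of 20 genes of vesicle release, the vesicle protein gene Sv2b, the calcium sensor gene Syt1 and the active zone gene Rims1 fell by 0.57, 0.33 and 0.31 (adjusted p = 0.0211, 0.0233 and 0.0479).

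**Figure D2:**
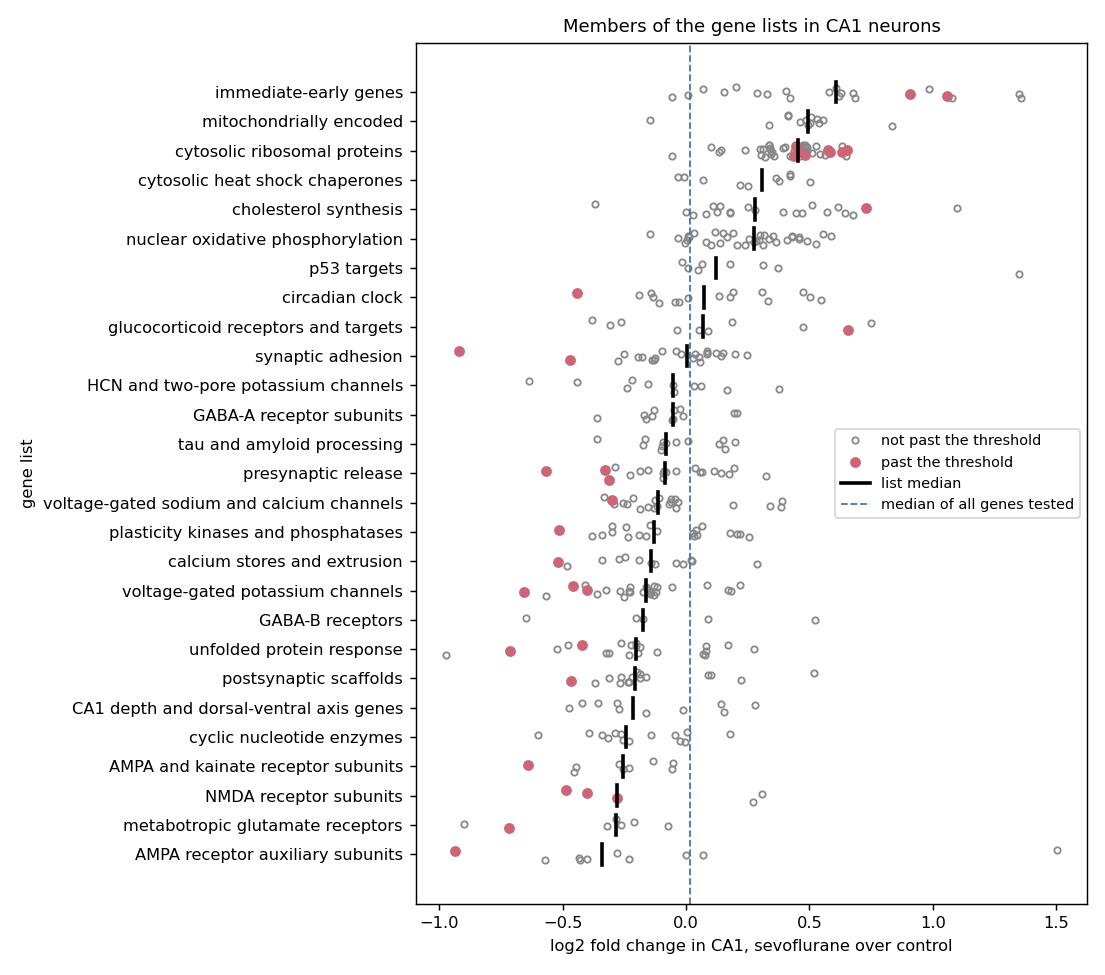
Log2 fold change (sevoflurane over control) of each tested member of 27 gene lists in CA1 neurons; filled points passed the edgeR threshold, black bars are list medians and the dashed line is the median of all genes tested. Receptor and channel lists lie mostly to the left with their called members. The immediate-early and ribosomal protein lists lie to the right, as do those of mitochondrially encoded, heat shock, cholesterol synthesis and nuclear oxidative phosphorylation genes.

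Outside these lists, the genes with the largest falls and a mean of at least 20 CPM had varied roles. The scaffold gene Sav1 of the Hippo pathway, just under that level at 19.3 CPM, had the smallest p of all genes (-1.27, SE 0.14, adjusted p = 0.00855) and is named after its values were seen. Ntng1, for the axonal adhesion protein netrin-G1, stood at 326.6, 343.3 and 422.6 CPM in Control and 217.4, 192.5 and 164.0 in Sevoflurane (-0.93, SE 0.12, adjusted p = 0.0121). Efna5, for the guidance ligand ephrin-A5, went from 58.3 ± 2.08 to 31.5 ± 4.12 CPM (-0.89, SE 0.11, adjusted p = 0.0111). Tmod3, which caps actin filaments, fell by 0.96 and the carbonic anhydrase gene Car4 by 0.95 (adjusted p = 0.0154 and 0.0233). Other falls were in Galnt18, of the same glycosyltransferase family as Galntl6 (-0.75), in Rnf121, a ubiquitin ligase gene (-1.24), in Plcl1, a phospholipase-related protein gene (-0.89), in the anti-apoptotic Bcl2 (-0.84) and in the RNA-binding Rbm41 (-0.73), with adjusted p from 0.00855 to 0.0498. Of the 12 genes that led CA1 over the other classes, Cpne8 and Asap2 fell as well (-0.48 and -0.49, adjusted p = 0.0329 and 0.0310), and the other 10 did not pass.

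Ttr, for transthyretin, had the largest fall and is a choroid plexus gene rather than a neuronal one. The CA1 members held 327, 245 and 993 Ttr UMIs in Control and 5, 2 and 2 in Sevoflurane (-7.48, SE 0.94, adjusted p = 0.0111). The fall was as steep in DG (-7.05), CA3 (-6.76) and RH (-7.00). Of the 8 choroid plexus markers listed as markers, 4 could be tested and Ttr alone passed; Folr1, Clic6, Otx2 and Slc4a5 were each at or below 1.12 CPM in every library. How much of the Ttr in CA1 droplets came from outside the cells was not tested.

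**Figure D3:**
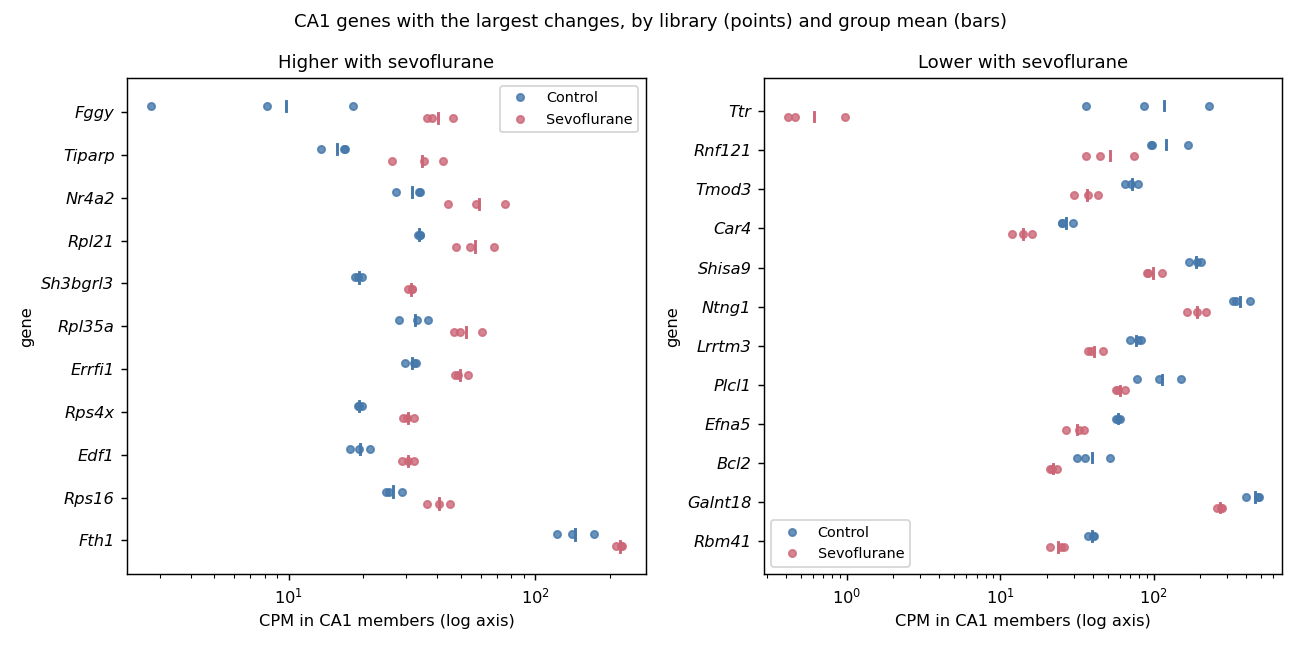
Level in CPM (log axis) in CA1 members for 11 of the 12 called genes with the largest rise and the 12 with the largest fall among those with a mean of at least 20 CPM; points are libraries and bars group means. Genes were chosen to have groups without overlap, and Ttr spans the widest range.

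The genes that rose included activity-dependent transcription factors. Nr4a2, for an orphan nuclear receptor induced by neuronal activity, stood at 34.1, 27.3 and 33.8 CPM in Control and 75.1, 57.3 and 44.4 in Sevoflurane (0.91, SE 0.18, adjusted p = 0.0399). Egr4, an early growth response gene, stood at 6.87, 5.04 and 8.75 and then 15.6, 13.9 and 12.5 CPM (1.06, SE 0.22, adjusted p = 0.0480). In both, each Sevoflurane library exceeded each Control library. These were 2 of 21 immediate-early genes tested. The list's median log2 fold change was 0.61 and 20 of the 21 were positive, against 6829 of 12986 genes tested, but 19 did not pass: Fosb had 1.36, Fos 1.08, Nr4a3 0.68 and Arc 0.69 (adjusted p = 0.0948, 0.0869, 0.0599 and 0.192). Fos itself was scarce, at 2.22 to 3.68 CPM in Control and 5.55 to 6.85 in Sevoflurane. In Arc and Npas4 the groups overlapped.

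The opposite sign was seen in chaperones of the endoplasmic reticulum, the targets of the unfolded protein response. Hsp90b1, for the chaperone GRP94, stood at 74.0, 81.4 and 75.7 CPM in Control and 56.7, 57.8 and 58.6 in Sevoflurane (-0.42, SE 0.08, adjusted p = 0.0397). Pdia6, a protein disulfide isomerase gene, stood at 30.4, 34.0 and 34.1 and then 19.3, 24.4 and 16.6 CPM (-0.71, SE 0.15, adjusted p = 0.0479). Neither gene had overlapping groups. They were 2 of 21 genes of this list, whose median was -0.20, and 15 of the 21 were negative. Pdia3 and Pdia4 had -0.48 and -0.97 (adjusted p = 0.0507 and 0.0516). The master chaperone gene Hspa5 had -0.20 and the transcription factor gene Xbp1 -0.33 (adjusted p = 0.429 and 0.294).

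The promoters of these 4 genes are shown because each list is classically tied to a promoter element. Activity-dependent genes often carry the core of the cyclic AMP response element, TGACG, and chaperone genes the endoplasmic reticulum stress element, CCAAT and CCACG with 9 bases of any kind between them. Both were searched on both strands in the 250 bases before each gene's RefSeq start (GRCm38.p6). Matches are in capitals, and each sequence reads 5′ to 3′ on the gene's strand and ends before the annotated gene. Egr4 is at chr6:85513590-85513839 (minus strand), Nr4a2 at chr2:57124004-57124253 (minus), Hsp90b1 at chr10:86705510-86705694 (minus) and Pdia6 at chr12:17266339-17266544 (plus).
Egr4: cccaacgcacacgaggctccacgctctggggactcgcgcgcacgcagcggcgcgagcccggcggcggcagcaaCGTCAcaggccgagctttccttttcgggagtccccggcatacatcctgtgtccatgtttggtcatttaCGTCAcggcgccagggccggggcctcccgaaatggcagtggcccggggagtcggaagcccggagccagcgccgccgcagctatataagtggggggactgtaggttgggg
Nr4a2: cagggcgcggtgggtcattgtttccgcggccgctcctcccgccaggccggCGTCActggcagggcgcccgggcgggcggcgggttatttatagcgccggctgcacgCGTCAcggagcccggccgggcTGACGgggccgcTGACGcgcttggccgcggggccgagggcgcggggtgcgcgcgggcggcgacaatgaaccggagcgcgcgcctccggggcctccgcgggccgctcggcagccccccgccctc
Hsp90b1: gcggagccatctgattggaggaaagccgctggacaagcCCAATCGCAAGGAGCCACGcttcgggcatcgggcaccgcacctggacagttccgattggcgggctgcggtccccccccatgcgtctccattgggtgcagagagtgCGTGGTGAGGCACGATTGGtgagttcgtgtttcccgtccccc
Pdia6: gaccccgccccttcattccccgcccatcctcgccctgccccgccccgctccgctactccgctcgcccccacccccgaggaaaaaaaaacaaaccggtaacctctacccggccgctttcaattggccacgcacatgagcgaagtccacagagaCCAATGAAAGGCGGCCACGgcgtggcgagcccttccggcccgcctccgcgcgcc
The Nr4a2 window held 4 matches to TGACG, 2 on each strand, and the Egr4 window 2, both on the opposite strand. The short core was present in 17.7% of all 32817 promoter windows and in 13 of the 18 immediate-early genes with a window. It was also present in 9 of 20 genes of the unfolded protein response list, so it was not particular to the immediate-early list. The longer stress element was present in only 0.113% of windows (37), and in 7 of 20 genes of the unfolded protein response list: Calr, Canx, Creld2, Dnajc3, Hsp90b1, Hspa5 and Pdia6. Hsp90b1 carried 2 copies and Pdia6 a single copy. Of those 7 genes, 6 had negative log2 fold changes in CA1, between -0.71 and -0.20, and Calr had 0.08. A match describes the sequence and was not tested as a site in use.

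Cytosolic ribosomal proteins, the protein part of the translation machinery, rose in 8 of 50 genes, and 49 of 50 were positive with a median of 0.45. Rps4x stood at 19.0, 19.3 and 19.8 CPM in Control and 29.1, 32.2 and 30.2 in Sevoflurane (0.65, SE 0.12, adjusted p = 0.0291), and Rps16 went from 26.4 ± 2.14 to 40.7 ± 4.31 CPM (0.63, adjusted p = 0.0344). Rps29 and Rps6 rose by 0.58 each (adjusted p = 0.0410 and 0.0497). Rpl21 and Rpl35a, ribosomal protein genes outside the list, rose by 0.75 and 0.69 (adjusted p = 0.0284 and 0.0399). Many ribosomal protein genes have near-identical processed copies, so single values are uncertain. In the median CA1 cell these 50 genes were 0.148% to 0.185% of the UMIs in Control and 0.187% to 0.269% in Sevoflurane, without overlap (exact permutation p = 0.1, the smallest that 3 against 3 allows). Mitochondrially encoded genes varied by library instead: mt-Co1 stood at 460.1, 175.7 and 268.4 CPM and then 257.8, 476.5 and 538.2, and none of 13 passed (edgeR, 0 of 13 also at an unadjusted p under 0.05). Their median log2 fold change was 0.49, and 12 of the 13 were positive. Members above 0.5% mitochondrial UMIs numbered 55, 15 and 23 in Control and 14, 63 and 59 in Sevoflurane. Without them 1 of the 50 ribosomal protein genes passed and the list median was 0.39. The share of the 50 genes in the median cell then overlapped between the groups, with Sevoflurane 3 at 0.179% below Control 1 at 0.184% (exact permutation p = 0.2).

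Other short transcripts rose with them: Fth1, the iron-storing ferritin heavy chain gene (from 145.2 ± 25.5 to 219.9 ± 6.56 CPM, 0.60), Edf1, a ribosome-associated cofactor gene (0.63), and Sh3bgrl3 (0.70). Among genes with a symbol and a mean of at least 20 CPM, the largest rises were in Fggy, a carbohydrate kinase family gene, at 18.2, 8.16 and 2.76 CPM in Control and 36.5, 46.4 and 38.2 in Sevoflurane (2.11, SE 0.38, adjusted p = 0.0310), and in Tiparp, an ADP-ribosyltransferase gene (1.15, SE 0.18, adjusted p = 0.0233). Errfi1, a feedback inhibitor of the EGF receptor listed among glucocorticoid targets, rose by 0.66 (adjusted p = 0.0233) as 1 of 10. In this list 6 of 10 had an unadjusted p under 0.05, with values from -0.38 for the mineralocorticoid receptor gene Nr3c2 to 0.75 for Ddit4, and the classical targets Fkbp5 and Sgk1 had 0.05 and -0.04. Of 21 cholesterol synthesis genes the sterol methyl oxidase gene Msmo1 rose (0.73, adjusted p = 0.0326), and 19 of 21 were positive (median 0.28). Of 16 clock genes, Npas2 fell by 0.44 (adjusted p = 0.0284). No gene passed among 10 cytosolic heat shock chaperones, 8 p53 targets, 13 tau and amyloid genes, 35 nuclear oxidative phosphorylation genes and 10 genes that mark depth or the dorsal-ventral axis in CA1 (4, 2, 1, 15 and 4 had an unadjusted p under 0.05). Over all genes tested, that held for 2174 of 12986. The heat shock, p53, tau and amyloid, oxidative phosphorylation and depth lists had medians of 0.31, 0.12, -0.08, 0.28 and -0.22. Of the 35 nuclear oxidative phosphorylation genes, 32 were positive.

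The genes that fell were long, and how much of their counts came from introns was not tested. Their median genomic span was 266.9 kb, against 15.1 kb for the genes that rose and 28.1 kb for all genes tested. The longest of 4 equal classes of genes by span, above 68.7 kb, held 114 of the 134 lower genes and 9 of the 40 higher genes, and had a median log2 fold change of -0.10 against 0.13 in the shortest class. When a smooth trend of level with span was removed from each library, 8 genes rose and 17 fell. Of the 47 called genes that the naming rule and the lists chose, 11 still passed (adjusted p from 0.0332 to 0.0480). They were the lower genes Ttr, Slc8a1, Shisa9, Lrrtm3, Galnt18, Efna5, Tmod3 and Car4 and the higher genes Fggy, Tiparp and Errfi1. In this fit no gene passed in the NMDA, AMPA and kainate, metabotropic, potassium channel, vesicle release, immediate-early or unfolded protein response lists. Calls in these lists were lost with different changes of size. Grin2b went to -0.09 and Syt1 to -0.14 (adjusted p = 0.465 and 0.238), and Grin2a to -0.22 (adjusted p = 0.0867). Kcnd3 was at -0.51, Nr4a2 at 0.86 and Hsp90b1 at -0.47, with adjusted p = 0.0708, 0.0803 and 0.0553. None of the 50 ribosomal protein genes passed, and their median went from 0.45 to 0.28. The nuclear RNA Malat1 stood at 42430 ± 5303 unscaled CPM in Control against 43700 ± 9537 after exposure (exact permutation p = 0.8).

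**Figure D4:**
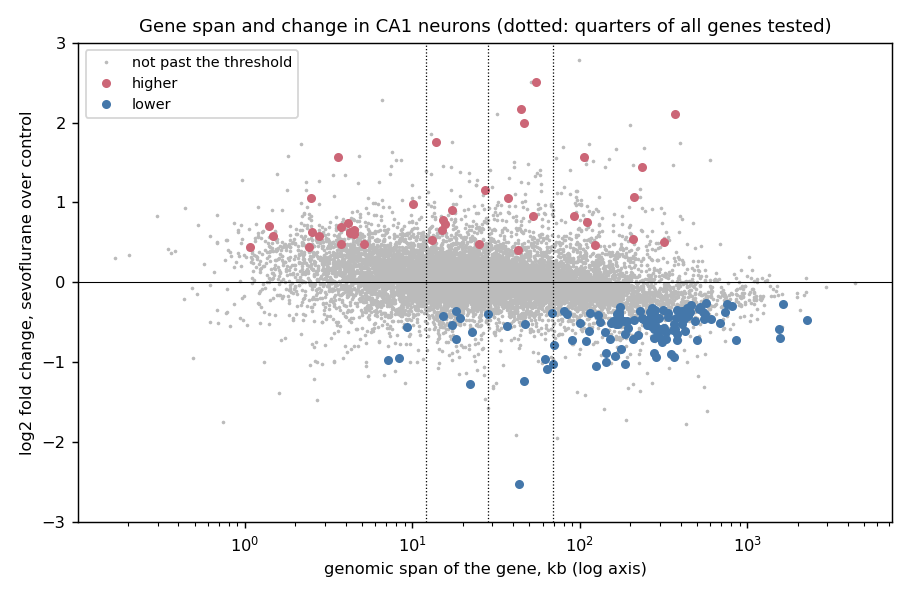
Genomic span of each gene tested in CA1 (kb, log axis) against its log2 fold change, with called genes coloured; dotted lines divide all genes into 4 equal classes by span, and 2 genes lie beyond the vertical axis. Of the 134 lower genes 114 lie right of the last dotted line.

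The number of calls depended on which library was left out. Without Control 2, Ttr was the only gene of the 174 to pass; without Control 1 or Control 3, 5 and 1 genes rose and 22 and 24 fell. Without Sevoflurane 2, 4 rose and 37 fell, and without Sevoflurane 3, 20 rose and 34 fell. Without the female library Sevoflurane 1, 52 rose and 166 fell, and these included 117 of the 174 genes. In that fit no immediate-early or unfolded protein response gene passed, so the calls of Nr4a2, Egr4, Hsp90b1 and Pdia6 were lost. Of the 47 called genes that the naming rule and the lists chose, Ttr passed in all 6 of these fits. Slc8a1, Shisa9, Ntng1, Lrrtm3, Efna5, Galnt18 and Tmod3 passed in 5, all but the one without Control 2, and Grin2a in 4. The other 38 passed in at most 2. None of the 47 changed sign in these fits, but groups that do not overlap keep their order when a library is left out.

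To ask whether the response of CA1 differed from that of its neighbours, the difference between sevoflurane and control was itself compared between classes of the same libraries. Between CA1 and DG, 34 of 14764 genes (0.23%) passed, 16 with the more positive and 18 with the more negative value in CA1, and 1230 had an unadjusted p under 0.05. Car4 stood at 26.5, 31.1 and 26.2 CPM in Control CA1 cells and 12.4, 16.6 and 14.4 in Sevoflurane CA1 cells, but at 25.9, 21.2 and 24.1 and then 22.1, 27.2 and 23.0 in DG. Its fall of 0.95 in CA1 stood against 0.05 in DG (difference -1.01, SE 0.17, adjusted p = 0.0223). Bcl2 behaved alike, with -0.84 in CA1 and 0.20 in DG (difference -1.02, SE 0.17, adjusted p = 0.0194), and Tmod3 too, with -0.96 and -0.13 (difference -0.84, adjusted p = 0.0339). In CA3 and RH, Bcl2 had -0.94 and -0.76, Tmod3 -0.74 and -0.31, and Car4 -0.40 and -0.36. Of these only Bcl2 in RH passed (adjusted p = 0.0373), so its fall was not particular to CA1. Sntg2, a syntrophin gene, and Ephb1, an Eph receptor gene, had -0.90 and -0.62 in CA1, which alone did not pass, and 0.41 and 0.23 in DG (differences -1.34 and -0.84, adjusted p = 0.0129 each).

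In the other direction, some genes fell in DG and did not pass in CA1. Kctd16, for an auxiliary subunit of GABA-B receptors, stood at 1197, 1259 and 1282 CPM in Control CA1 cells and 1029, 1128 and 1135 in Sevoflurane CA1 cells (-0.17), but went from 1295, 1417 and 1293 to 767.8, 616.3 and 606.5 in DG (-0.99; difference 0.83, SE 0.10, adjusted p = 0.00296). Cyp7b1, a neurosteroid hydroxylase gene, had -0.16 in CA1 and -0.87 in DG (difference 0.74, adjusted p = 0.0223). Nhs, Pdzrn4 and Enpp2 had 0.63, 0.38 and -0.29 in CA1 against -1.04, -1.10 and -1.58 in DG, where Pdzrn4 alone did not pass (differences 1.67, 1.49 and 1.24, adjusted p = 0.0420, 0.00817 and 0.0481). Nhs lies on the X chromosome and its CA1 levels were low, at 2.47 to 7.84 CPM, and Enpp2 is also a choroid plexus gene, so that its part from outside the cells was not tested. Lca5, a ciliary gene, had -0.00 in CA1 and 0.93 in DG (difference -0.92, adjusted p = 0.0121).

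**Figure D5:**
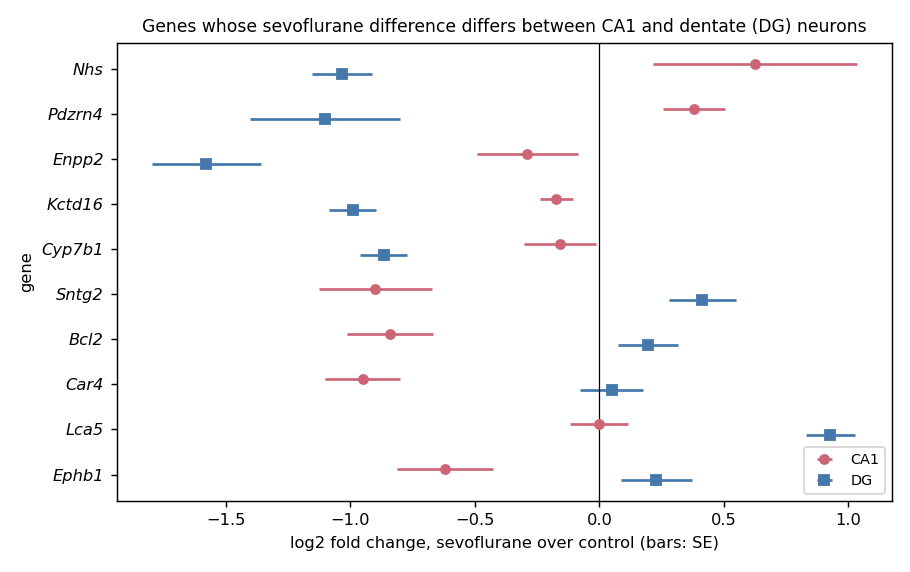
Log2 fold change (sevoflurane over control, with SE) in CA1 and in dentate granule neurons for the 10 genes named for the class difference. Car4, Bcl2, Sntg2 and Ephb1 lie below 0 in CA1 and above 0 in DG, and Kctd16, Cyp7b1, Nhs, Pdzrn4 and Enpp2 lie lower in DG than in CA1.

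Between CA1 and CA3, none of 14484 genes passed with edgeR (lowest adjusted p = 0.0876, 1017 at an unadjusted p under 0.05) or with DESeq2, which does not show that these fields respond alike. No glutamate receptor gene was among the 34 that separated CA1 from DG, but only 0.23% of all genes were, so this absence says little. Grin2a had -0.40 in CA1, -0.34 in DG, -0.27 in CA3 and -0.33 in RH, and Shisa9 had -0.94, -0.61, -0.92 and -0.62. In the same order, Grin2b had -0.28, -0.28, -0.22 and -0.27, and Grin3a -0.49, -0.38, -0.35 and -0.14. The values were less alike for Gria4 (-0.64, -0.26, -0.34 and -0.34) and for Grm8 (-0.72, -0.08, -0.37 and -0.14). Of the CA1 calls, 71 of 172 tested in DG were also called there in the same direction, 26 of 172 in CA3 and 39 of 173 in RH. Over all genes tested in each class, 336 of 14446 (2.33%) were called in DG, 59 of 13858 (0.426%) in CA3 and 123 of 14617 (0.841%) in RH. These classes come from the same 6 libraries, so such counts are not independent of each other.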

How the data were processed

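For each of 6 libraries the authors deposited a matrix of unnormalised UMI counts, whose header names Cell Ranger 6.1.1. The submitters' processing notes list CASAVA 1.8, Cell Ranger and Seurat with no role. The genome build, annotation, and intron and strand settings are not given in the sources used here, so reads of overlapping or antisense genes cannot be told apart. Counts were not corrected for free RNA. Library totals ran from 54426522 to 70741809 UMIs over 7068 to 9795 barcodes.

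Members were gated as described above (numpy 2.4.6, scipy 1.17.1), with marker levels as the natural log of 1 plus counts per 10000. The members and gene lists were chosen with earlier results of these data known. Summed counts were tested with edgeR 4.0.16 (R 4.3.3; TMM scaling, filterByExpr, quasi-likelihood test, Benjamini-Hochberg threshold 0.05), 3 libraries against 3. Class differences were tested as an interaction with the library as a block. The code was tested on simulated data with 200 changed genes of 12986. The CA1 comparison recovered 66% of the 1.5-fold and 100% of the 2-fold changes, and made 21 false calls. In that simulation the false calls were a larger share of all calls than the threshold of 0.05 aims at.

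Genes were named by rule: the 12 largest rises and falls among called genes that averaged 20 CPM or more, had a symbol and did not overlap between groups (12 called genes past this level had none), up to 4 called genes per list, and the 5 largest class differences in each direction among genes with a symbol and a mean of at least 20 CPM in either class; other names were chosen after their values were seen. Some genes that met this rule are not reported here. Positions and spans came from GENCODE vM21 (GRCm38), which matched 31184 of 31253 gene IDs, and promoters from RefSeq (GRCm38.p6). Doublets, marked with Scrublet in scanpy 1.11.5 (2.96% to 6.17% of members), were kept and were removed in an alternative. Other alternatives used DESeq2 1.42.0, its size factors in edgeR, no filter, other gate limits, thinning, a length trend, a replicate block and each library left out. Same-numbered libraries did not deviate together (correlations across genes of -0.128, -0.0334 and -0.00849), so they were not paired.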

Additional observations from a re-analysis of the deposited data

Results flagged for a closer look

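For 34 genes the difference between sevoflurane and control itself differed between CA1 and dentate granule neurons of the same libraries (edgeR interaction test with Benjamini-Hochberg adjustment). The 10 given here were the 5 largest in each direction among genes with a symbol and a mean of at least 20 CPM in either class. Their adjusted p ran from 0.00296 to 0.0481. The CA1 value was above the DG value by 1.67 for Nhs, 1.49 for Pdzrn4, 1.24 for Enpp2, 0.83 for Kctd16 and 0.74 for Cyp7b1 on the log2 scale. The CA1 minus DG difference was -1.34 for Sntg2, -1.02 for Bcl2, -1.01 for Car4, -0.92 for Lca5 and -0.84 for Ephb1.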

How the results depend on the processing

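The number of calls depended strongly on the setting. None of the 47 called genes chosen by the naming rule and the lists changed sign under the alternatives run (DESeq2 gave a value for 41 of them). Their groups did not overlap in the main fit, so a constant sign says little about stability. Against 40 genes higher and 134 lower, DESeq2 gave 77 and 365, no filter on low counts 256 and 444, a gate margin of 0.4 gave 20 and 60, thinning members to 3000 UMIs 18 and 64, and removal of the trend with gene span 8 and 17. The share of calls that were higher was 23% and became 36.6% without the filter. With a replicate block, which the labels' numbers do not justify as a pairing, 7 were higher and 51 lower (12.1% higher). Leaving out each library in turn gave 0 to 52 higher and 1 to 166 lower genes. The class difference from DG gave 34 genes, 19 with DESeq2, 279 without the filter, 52 with doublets removed and 13 to 33 with a library left out. That from CA3 gave 0 genes, 146 without the filter, 1 at the margin of 0.4 and 0 to 16 with a library left out, the 16 without Sevoflurane 2. The cause of these changes was not tested, beyond the fewer libraries or counts that some settings use. After seeing the data, 2 alternatives were added: members with at most 0.5% mitochondrial UMIs (33 and 115) and members without Cux2, Mbp or Zfhx3 UMIs over set limits (56 and 166). The share and depth of CA1 members kept their direction or stayed within the spread between libraries. Each group had 3 libraries with 288 to 537 members, which limits the precision of every value.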
